A study of Danio rerio with 16 samples.

Results

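The comparison described here is that of triploid with diploid zebrafish testis when both had received EE2 (17α-ethinylestradiol), the synthetic estrogen of contraceptive pills. It rests on 7 of the 16 libraries of the series: triploid EE2 replicates 1, 3 and 4, and diploid EE2 replicates 1 to 4, chosen by their titles. Triploid EE2 replicate 2, which its submitters titled an outlier, was left out of the tests, but its values are given beside the results. All fish were of the AB strain, and the 8 control libraries, 4 diploid and 4 triploid, were labelled as controls. The sources used here do not give the EE2 dose, how long exposure lasted, the fish's age, their number per library, the time of day of sampling or how triploidy was induced. P-values therefore measure the spread between these samples, which may be partly technical.

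A triploid cell carries an extra set of chromosomes, and triploid fish are known for poor fertility because an odd set of chromosomes pairs badly in meiosis. The testis holds germ cells from spermatogonia through meiotic spermatocytes to spermatids, and somatic cells around them. Sertoli cells nurse the germ cells, Leydig cells make androgens, and peritubular cells, vessels and matrix form the tissue between the tubules. Estrogens are known to lower androgen synthesis in the fish testis.

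The libraries held 7052508 to 17369549 read pairs in genes. Germ cell and Sertoli cell markers were present in all 8 EE2 libraries, with ddx4, a germ cell RNA helicase, at 872 to 1106 CPM (counts of read pairs scaled to the library total with TMM factors) and amh, the anti-Müllerian hormone of Sertoli cells, at 169 to 1225 CPM. The ovarian genes cyp19a1a, the aromatase, and foxl2a stayed at or below 0.169 CPM. The titled outlier stood apart in its macrophage and neutrophil list, which summed to 5184 CPM against 633 to 736 CPM in the other triploid and 787 to 1193 CPM in the diploid libraries. Diploid EE2 replicate 1 stood apart in 2 lists of other tissues: exocrine pancreas and gut summed to 8746 CPM there, while replicates 2 to 4 had 128 to 1109 CPM, and erythrocyte genes to 1459 CPM, while those had 235 to 246 CPM. Among controls, diploid replicate 1 stood apart in ribosomal protein genes of the large subunit, at 34554 CPM where replicates 2 to 4 had 12592 to 12758 CPM, and it entered the EE2 test only through the shared scaling and estimate of the spread.

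Under EE2, far more genes were lower in triploid than in diploid testis than were higher. Of 23007 genes tested, 1338 (5.82%) passed edgeR's quasi-likelihood test at a Benjamini-Hochberg adjusted p under 0.05. Of these, 1097 (4.77% of the genes tested) were lower in triploids and 241 (1.05%) were higher. The falls were also larger: 606 lower genes changed by at least 2-fold and 192 by at least 8-fold, against 30 and 4 of the higher genes. The median change was a log2 of -1.06 over the lower genes and 0.65 over the higher genes, while it was 0.00 over all genes tested. The 3 triploid libraries lay below all 4 diploid libraries for 1060 of the lower genes and above them for 235 of the higher genes, against 12.1% and 8.18% of all genes tested. The calls were made from these same libraries, so separation among called genes follows largely from the calling. In bulk tissue, fewer cells of a type and less RNA per cell cannot be told apart, and values scaled to library size give no absolute amount of RNA per cell.

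**Figure D1:**
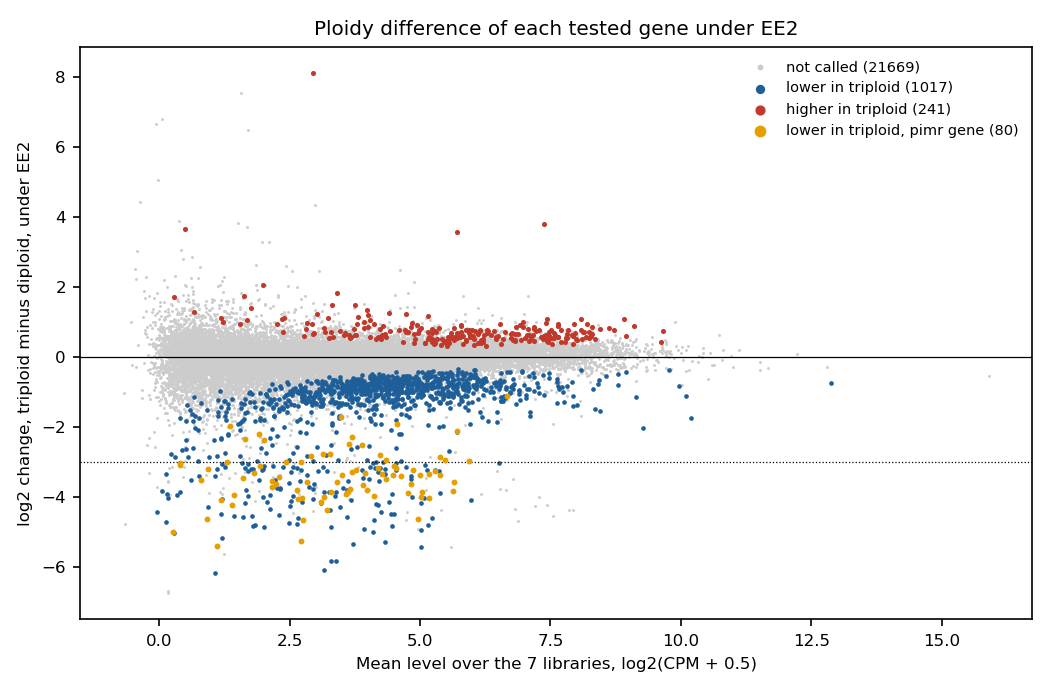
Each point is 1 of the 23007 genes tested, with its mean level over the 7 EE2 libraries on the horizontal axis (log2 of CPM + 0.5) and the log2 change, triploid minus diploid, on the vertical axis. The dotted line marks an 8-fold fall. A band of pimr genes (orange) and other lower genes (blue) lies at and below it, and the 241 higher genes (red) are mostly within 2-fold. The 3 called genes with no read pair in one of the groups are drawn at the smallest fold their counts allow.

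The number of genes called depended on the libraries in the fit. It was 717, 592 and 655 without triploid replicates 1, 3 and 4, 878 and 673 without diploid replicates 1 and 3, and 484 with the titled outlier included. The share that was lower ranged from 79.9% to 87.8% over the 7 omissions of an EE2 library, against 82.0% with all 7. It was 94.2% with the outlier included. It was 70.5% (630 higher and 1505 lower) when diploid control replicate 1 was left out, a choice made after its composition was seen. For most genes described singly below, the libraries whose omission ended the call are named, with the highest adjusted p over the 7 omissions.

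The steepest falls were in genes with very little RNA in triploid testis, many of them without an established name. The testis-specific serine kinase gene tssk6 (ENSDARG00000017994, chromosome 22, 18386253 to 18387059, GRCz11), whose product is required for sperm function in mice, was at 0.83, 3.45 and 0.914 CPM in triploid replicates 1, 3 and 4. It was at 25.6, 47.6, 37.4 and 40.2 CPM in diploid replicates 1 to 4, and at 1.78 CPM in the titled outlier. All triploid values, the outlier included, lay far below every diploid value. The log2 change was -4.48 ± 0.54 (SE, adjusted p = 0.00023), a 22.3-fold fall that stayed called in all 7 omissions.

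Members of the pimr family, named for their likeness to Pim protein kinases and numerous in zebrafish, were lower. The table held 180 of them, 124 passed the filter on low counts, 80 were lower, 0 were higher and 44 were not called. Over all genes tested, 4.77% were lower. Their median log2 change was -3.01 over the 124 tested members, against 0.00 over all genes. The summed level of the family was 315, 550 and 320 CPM in triploid replicates 1, 3 and 4, 280 CPM in the outlier, and 1140, 3197, 2492 and 2309 CPM in diploid replicates 1 to 4. Every triploid library was thus below the lowest diploid library, which was replicate 1. The 80 lower members lay on 17 chromosomes. Members that were not called were expressed at lower levels, with a median of 2.05 CPM in diploids against 18.1 CPM for the lower members. The count of lower members was 73 to 82 over the 7 omissions and 81 with the outlier included.

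Among members whose mean log2 CPM reached 1, the largest fall was that of pimr82 (chromosome 19, 23450493 to 23452345), which was at 0.138, 0.492 and 0.203 CPM in triploid replicates 1, 3 and 4. In diploid replicates 1 to 4 it was at 5.01, 13.6, 13.6 and 9.54 CPM, a change of -5.26 ± 0.49 on the log2 scale (SE, adjusted p = 0.0001). The next, pimr180 and pimr189, both on chromosome 8, fell by 4.67 ± 0.80 and 4.64 ± 0.52 on the log2 scale (SE, adjusted p = 0.0031 and 0.00016). All 3 stayed called in all 7 omissions. The less expressed pimr85, neighbour of pimr82, fell further, by 5.4 on the log2 scale (adjusted p = 0.00051), and is named after its value was seen. Reads with several alignments were not counted, so values of single members of this family of near copies are uncertain.

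The 3 genes named KLHL10, on chromosome 17, encode relatives of a BTB-Kelch protein required for spermatid development in mice. The gene at 7522777 to 7531632 (KLHL10 ENSDARG00000112170) was at 0.898, 5.12 and 0 CPM in triploid replicates 1, 3 and 4 and at 21.6 to 47.4 CPM in the 4 diploid libraries. The log2 change was -4.14 ± 0.82 (SE, adjusted p = 0.0091, lost without triploid replicate 1 at 0.052). Its neighbour KLHL10 ENSDARG00000115489, at 7510220 to 7521586, changed by -4.85 ± 0.96 (SE, adjusted p = 0.0088, lost without triploid replicate 4 at 0.052). Diploid levels of the neighbour ranged from 1.76 CPM in replicate 1 to 36.4 CPM in replicate 2, so its size in diploids varied widely. The third, KLHL10 ENSDARG00000005814, fell from 77.6 ± 31.9 CPM (SD, n = 4) to 17.6 ± 2.67 CPM (SD, n = 3), a log2 change of -2.15 (adjusted p = 0.001, called in all 7 omissions). These genes may share reads, and values of each alone are uncertain.

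Genes of 2 other families fell to low levels. Of the nampt genes, which encode relatives of the enzyme that makes the NAD precursor nicotinamide mononucleotide, 4 of 6 tested were lower, by a log2 of 3.19 to 4.02 in size. NAMPT ENSDARG00000076694, on chromosome 18 (33788340 to 33795749), was at 2.76 to 4.28 CPM in triploids and 30.8 to 81.0 CPM in diploids. It lies within nampt3.2 on the same strand, so the values of both are uncertain. The other lower members were nampt4.1 and nampt4.2, neighbours on chromosome 11. The nkd3 genes resemble the naked cuticle genes, whose products inhibit Wnt signalling. Of the nkd genes, 3 of 6 tested were lower, led by nkd3l (chromosome 19, 33368152 to 33370271). That gene was at 0.406 to 1.67 CPM in triploids and 16.7 to 46.3 CPM in diploids, a change of -5.29 ± 0.70 on the log2 scale (SE, adjusted p = 0.00048). The better known nkd1 did not pass the test (log2 -0.17, adjusted p = 0.63). Over all genes tested, 4.77% were lower. Counts for the nampt and nkd families were made after their values were seen, so a high share is partly built in.

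**Figure D2:**
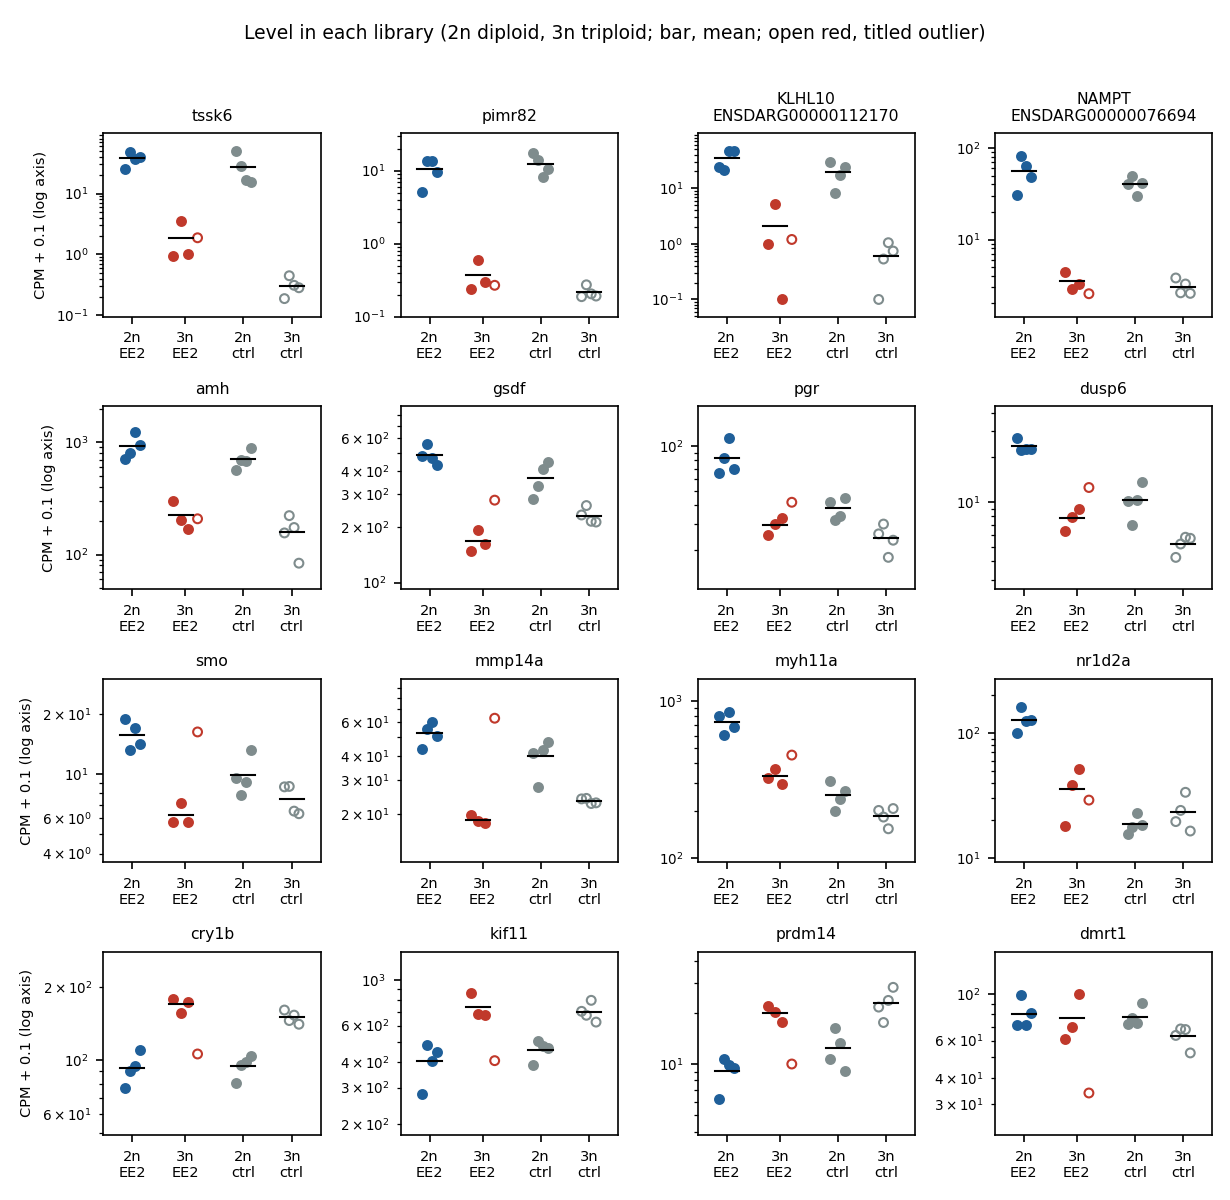
Level of 16 genes in each library (CPM + 0.1, log axis) for diploid EE2 (blue), triploid EE2 (red, the titled outlier open), diploid control (grey filled) and triploid control (grey open). Bars are group means without the outlier. For tssk6, pimr82, KLHL10 ENSDARG00000112170 and NAMPT ENSDARG00000076694 the triploid libraries lie far below the diploid ones, while dmrt1 overlaps between the groups.

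The 192 genes that fell by at least 8-fold comprised 60 pimr genes and 132 others, and 121 of them (63.0%) had only a clone or identifier name, against 23.5% of the genes tested. Their median exon length was 1206 bases, against 2277 bases over the genes tested. Their median level was 13.6 CPM in diploids and 0.874 CPM in triploids, as the choice of the genes requires reads in diploids. They lay on 24 chromosomes and 1 unplaced scaffold, with none on chromosome 9 and 25 on chromosome 20. At the threshold, si:dkey-80c24.5 changed by -3.0 and pimr136 by -2.99, so the boundary is a matter of size and not a gap.

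Summed over the 192 genes, the level was 253, 483 and 217 CPM in triploid replicates 1, 3 and 4, and 1870, 5728, 4604 and 4003 CPM in diploid replicates 1 to 4. Triploid replicate 3 kept the most of this RNA among the triploids, being the highest of the 3 for 148 of the 192 genes, against 33.2% of the genes tested. Diploid replicate 1 held the least among the diploids, being the lowest of the 4 for 178 of the 192 genes, against 29.0% of the genes tested. That library was also the one with the high pancreas and erythrocyte lists, and the part of this in its lower level was not tested. The titled outlier, which was not used in choosing the genes, summed to 215 CPM and lay below all 4 diploid libraries for 189 of the 192, against 25.8% of the genes tested. The diploid libraries were used in that choice, which favours high diploid values, so these shares are not alike. The 8 controls entered the fit that chose these genes through its filter, scaling and spread, but not its contrast. Over these genes, triploid controls summed to 166 to 223 CPM and diploid controls to 2196 to 2991 CPM. In the control comparison 177 of the 192 were called lower, against 2.16% of all genes tested.

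Some of the lower genes lay beside each other. With starts no more than 100 kb apart, runs of at least 3 lower genes formed 37 spans, holding 156 lower genes among 197 tested there. Of these spans, 9 held a pimr gene and 24 had a median log2 change of -2 or less. The span with the most lower genes, on chromosome 19 (23381331 to 23799729), had 13 of its 15 tested genes lower, 12 of them pimr genes including pimr82. Spans without a pimr gene included chromosome 10, 6613279 to 6753115, where 8 of 13 tested genes were lower, and chromosome 2, 33692165 to 33753382, where all 6 tested genes were lower. Genes of these 2 spans carry only clone names. The members of a span are often near copies of each other, and their counts are then not independent. Spans were defined by their lower genes, so a high share of lower genes within them is built in. How many such runs would form with lower genes placed at random was not estimated.

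Called genes lay on every chromosome. The median log2 change ran from -0.03 to 0.03 over the 25 chromosomes. The share of tested genes called lower ran from 2.42% on chromosome 4 to 6.84% on chromosome 11, and that called higher from 0.491% on chromosome 10 to 2.37% on chromosome 1. On the long arm of chromosome 4, taken from base 28000000, 3 of 738 tested genes were higher and 7 lower, against 1.05% and 4.77% of all genes tested.

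A single span of neighbouring genes was higher in triploids. It lies on chromosome 1 (8579197 to 8670486), where 4 of 8 tested genes were higher. ENSDARG00000113858 was at 67.9, 570 and 427 CPM in triploid replicates 1, 3 and 4, at 288 CPM in the outlier, and at 23, 13, 28.1 and 39 CPM in diploid replicates 1 to 4. All triploid libraries lay above all diploid libraries, with replicate 1 the closest. Its log2 change was 3.79 ± 0.83 (SE, adjusted p = 0.017, lost without triploid replicates 3 or 4 or diploid replicates 1 or 3). The next gene, si:ch211-160d14.9, changed by 3.57 (adjusted p = 0.013, lost without triploid replicate 3, 0.056). Its neighbour si:ch211-160d14.15 had no read pair in any diploid EE2 library and averaged 16.9 CPM in triploids, at least 278-fold higher against a floor of 3 read pairs over the diploid group (adjusted p = 0.014, lost without triploid replicate 3, 0.051).

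The remaining called gene of the span was fscn1b, for the actin-bundling protein fascin, at 17.1 ± 5.35 CPM (SD, n = 3) in triploids and 4.81 ± 1.36 CPM (SD, n = 4) in diploids. This was a log2 change of 1.83 (adjusted p = 0.025, lost without triploid replicates 3 or 4 or diploid replicates 1 or 3, up to 0.098). The gene actb1, which lies between them, did not move with them (log2 -0.16, adjusted p = 0.80). In controls ENSDARG00000113858 was at 41.6 CPM in diploid control replicate 1 and at 126 to 584 CPM in the other 7 controls. It was not called in controls (log2 0.28, adjusted p = 0.88). The clone-named genes of this span were chosen after their values were seen.

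Among called genes with established names, groups that do not overlap and a mean log2 CPM of at least 1, the rises were small. Many of their calls were lost when a single library was left out. An omission also leaves fewer libraries to test, so a lost call does not show that 1 library carried the rise. The largest was nkx2.7, a homeobox transcription factor known from heart development, at 9.40, 4.14 and 5.08 CPM in triploids and 0.589 to 2.89 CPM in diploids. Its log2 change was 2.05 ± 0.47 (SE, adjusted p = 0.018, lost without triploid replicate 1 or diploid replicates 1 or 3, up to 0.11). The others were fscn1b, cpo, tmprss4a, ppt2a.1, ccdc141, kcnk2b, mybpc3, nrg1, prdm14, glulc and nek2, with log2 changes from 1.08 to 1.83. Of these 12, 2 stayed called in all 7 omissions. One was prdm14, a transcription factor required for germ cell formation in mice, at 21.9, 20.1 and 17.6 CPM in triploids and 6.10 to 10.5 CPM in diploids (log2 1.14 ± 0.22 SE, adjusted p = 0.0069). The other was nek2, a kinase of centrosome separation. It was at 836, 649 and 575 CPM in triploids and 182, 402, 347 and 364 CPM in diploids, a change of 1.08 ± 0.21 on the log2 scale (SE, adjusted p = 0.008). In the fit of the EE2 libraries alone nek2 did not pass (adjusted p = 0.061). The outlier lay above every diploid library for 5 of the 12 (fscn1b, ppt2a.1, ccdc141, kcnk2b and glulc), against 26% of all genes tested. It did not for the others, with nek2 at 363 CPM and prdm14 at 9.90 CPM. The 12 were chosen for low diploid values, so these shares are not alike.

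Genes of the mitotic spindle and checkpoint were higher in triploids. Of 53 tested, 19 were higher, 0 were lower and 34 were not called, against 1.05% higher and 4.77% lower over all genes tested. Of all 53, 52 had a positive change, against 11569 of all 23007 genes tested. The median of the 53 was a log2 of 0.37. Their summed level was 13141, 12160 and 11984 CPM in triploid replicates 1, 3 and 4 and 8038, 10353, 8947 and 9391 CPM in diploid replicates 1 to 4, so the groups did not overlap. Nor did they for germ cell genes, at 7173 to 8130 CPM in triploids and 6577 to 7048 CPM in diploids. DNA replication genes were likewise apart, at 5660 to 6326 CPM and 4992 to 5437 CPM. The outlier was below all diploids for these 2 lists, at 6385 and 4210 CPM. For the mitotic list the outlier summed to 7812 CPM, also below all diploids, and with it included 0 members were called. The count of higher members was 5, 10 and 10 without triploid replicates 1, 3 and 4, and 11 and 10 without diploid replicates 1 and 3. Higher calls over all genes fell too, from 241 to 100, 78 and 100 without triploid replicates 1, 3 and 4. They fell to 110 and 82 without diploid replicates 1 and 3, and to 28 with the outlier included. The loss of calls was thus not particular to the mitotic list.

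The members that stayed called in all 7 omissions were the cyclin gene ccnb1, which drives entry into mitosis (log2 0.96, adjusted p = 0.0065), the spindle motor gene kif11 (0.88, adjusted p = 0.0064), and the midzone genes kif23 (0.76, adjusted p = 0.0071) and prc1b (0.85, adjusted p = 0.0053). The level of kif11 was 864, 680 and 677 CPM in triploids and 280, 482, 406 and 444 CPM in diploids. Calls of the kinase genes plk1 (0.71) and aurka (0.65) were lost without triploid replicate 1 (adjusted p = 0.08 and 0.057). Genes of DNA replication had 0 of 52 called, with a median of 0.15, and genes of DNA damage response and repair 0 of 43, with a median of 0.17. Most members of these lists also had a positive change, 50 of 52 and 37 of 43. So did 35 of 39 meiosis, 48 of 60 spermatid and flagellum and 35 of 37 proteasome genes. A mostly positive sign was thus not particular to the mitotic list.

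**Figure D3:**
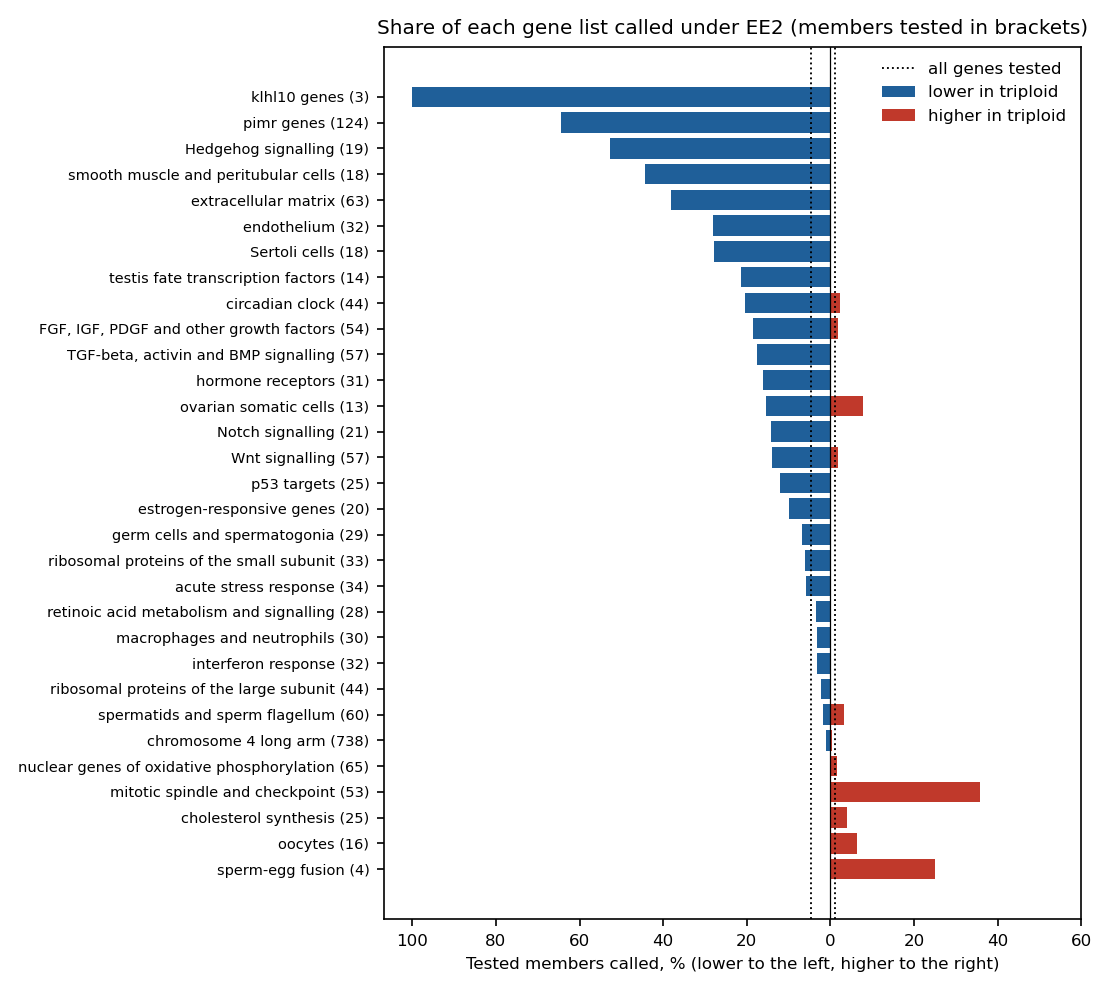
Share of the tested members of each gene list called lower (to the left, blue) and higher (to the right, red) in triploid testis under EE2, for the 31 lists with at least 1 called member. Dotted lines mark the shares over all genes tested, 4.77% lower and 1.05% higher. Lists of KLHL10, pimr, Hedgehog, smooth muscle and matrix genes extend furthest to the left, and the mitotic list furthest to the right.

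Most other germ cell genes did not pass the test. The meiosis list had 0 of 39 called (median log2 0.20), and sycp3, of the synaptonemal complex, overlapped between the groups at 82.2 to 118 CPM and 62.3 to 90.2 CPM. Of 60 spermatid and flagellum genes, tssk6 was lower and 2 were higher, the ciliary transport gene ift88 (log2 0.49, adjusted p = 0.05 after rounding) and armc3 (0.61, adjusted p = 0.019). Both rises were lost without triploid replicates 1 or 3, ift88 also without triploid replicate 4 or diploid replicates 1 or 3 (adjusted p up to 0.21 and 0.097). The list's median was 0.22, and its summed level was 18956 to 21530 CPM in triploids and 11795 to 19754 CPM in diploids, lowest in diploid replicate 1.

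Of the 4 genes of sperm and egg fusion, dcst2 was higher (log2 0.68, adjusted p = 0.034), a call lost without any 1 triploid library or diploid replicate 3 (up to 0.11). Of 29 germ cell and spermatogonial genes, 2 were lower, against 4.77% of all genes tested. They were the receptor genes kita (log2 -0.89, adjusted p = 0.045) and gfra1a (-1.74, adjusted p = 0.049). Both calls were lost without triploid replicates 3 or 4 or diploid replicates 1 or 3, and gfra1a also without triploid replicate 1 (up to 0.17 and 0.18). The general germ cell marker ddx4 did not pass, at 1106, 1094 and 988 CPM in triploids and 872 to 1095 CPM in diploids (log2 0.11, adjusted p = 0.70). Of 16 oocyte genes, ccnb1 alone was called.

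Sertoli cell genes included some of the clearest falls of well-known genes. The level of amh was 299, 205 and 169 CPM in triploid replicates 1, 3 and 4, 208 CPM in the outlier, and 712, 806, 1225 and 945 CPM in diploid replicates 1 to 4. Every triploid library lay well below the lowest diploid one. The log2 change was -2.04 ± 0.31 (SE, adjusted p = 0.0011). The gene gsdf, a TGF-beta family factor of Sertoli cells known to promote testis development in fish, was at 147, 192 and 161 CPM in triploids, 278 CPM in the outlier and 428 to 556 CPM in diploids. Its log2 change was -1.54 ± 0.17 (SE, adjusted p = 0.00011). Both stayed called in all 7 omissions and with the outlier included.

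Of the 18 Sertoli genes tested, 5 were lower and 0 higher, against 4.77% and 1.05% of all genes tested, and the median was -0.49. The others were wt1a, a transcription factor (log2 -1.15, adjusted p = 0.011, lost without triploid replicates 3 or 4, up to 0.066), fshr and clu. The receptor of follicle-stimulating hormone, fshr, changed by -1.09 (adjusted p = 0.021, lost without any 1 triploid library or diploid replicate 3, up to 0.1), and clu, for the chaperone clusterin, by -1.05 (adjusted p = 0.048, lost in all omissions but that of diploid replicate 2, up to 0.2). The count fell to 3, 2 and 2 without triploid replicates 1, 3 and 4, to 3 without diploid replicate 3 and to 2 with the outlier. Other members did not pass: dmrt1, a male determination factor, was at 61, 69.2 and 100.1 CPM in triploids and 71.0 to 98.8 CPM in diploids (log2 -0.07, adjusted p = 0.89), and sox9a changed by -0.02 (adjusted p = 0.98).

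Genes of Leydig cells and steroid synthesis had 0 of 25 called (median -0.31). The cholesterol transporter star was at 39.3 to 60.9 CPM in triploids and 45.5 to 82.8 CPM in diploids (log2 -0.55, adjusted p = 0.56). The androgen synthesis genes cyp17a1 (0.14, adjusted p = 0.88) and cyp11c1 (-0.47, adjusted p = 0.47) and the hormone insl3 (-0.65, adjusted p = 0.70) overlapped between the groups. The level of insl3 varied widely, from 20.5 CPM in diploid replicate 1 to 337 CPM in diploid replicate 2. The gonadal growth factor igf3 was at 0.276, 5.61 and 4.98 CPM in triploids and 0.748 to 1.88 CPM in diploids (log2 1.64, adjusted p = 0.32).

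Of 31 hormone receptor genes, 5 were lower and 0 higher, against 4.77% and 1.05% of all genes tested. The progesterone receptor pgr, a gene known to respond to estrogen, was at 25, 29.7 and 32.5 CPM in triploids, 41.7 CPM in the outlier and 65.8, 82.8, 112.5 and 70.0 CPM in diploids. Its log2 change was -1.51 ± 0.21 (SE, adjusted p = 0.00058). The estrogen receptor esr2a (log2 -0.82, adjusted p = 0.0022) and the thyroid hormone receptor thrb (-0.86, adjusted p = 0.0077) were also lower, and these 3 calls held in all 7 omissions. Those of fshr and ghrb did not, ghrb (-0.79, adjusted p = 0.035) being lost in 5 omissions (up to 0.15). The androgen receptor ar did not pass (log2 -0.29, adjusted p = 0.37), nor did lhcgr, the receptor of luteinizing hormone (-0.97, adjusted p = 0.17). The count was 3 without triploid replicates 1 or 3 or diploid replicate 3, and 2 with the outlier.

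Estrogen-responsive genes had 2 of 20 lower, pgr and F13A1 ENSDARG00000045453, a coagulation factor XIII gene (log2 -1.83, adjusted p = 0.019, lost without triploid replicates 3 or 4 or diploid replicate 3, up to 0.075). Over all genes tested, 4.77% were lower and 11438 of 23007 had a negative change. The median of the list was -1.12, and 19 of 20 members had a negative change. Without diploid replicate 3 the median was -0.19. That library led the list with a sum of 2858 CPM, where replicates 1, 2 and 4 had 648 to 756 CPM and 298 to 837 CPM in the triploid ones. The yolk precursor vtg1 was at 17.5, 62.8 and 279.8 CPM in triploids and 137, 90.1, 1222 and 95.8 CPM in diploids (log2 -1.69, adjusted p = 0.37). The liver list, of the organ that makes most vitellogenin, was also highest in diploid replicate 3 and triploid replicate 4, at 1418 and 1631 CPM, with 305 to 733 CPM in the remaining 5 libraries. Its part in these values was not tested.

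Several paracrine signalling lists had more members called lower than the 4.77% of all genes tested. Their counts changed with the libraries in the fit, as did the count over all genes. That count went from 1097 lower genes to 617, 514 and 555 without triploid replicates 1, 3 and 4. It went to 768 and 591 without diploid replicates 1 and 3, and to 456 with the outlier. A smaller list count thus does not show that the list rested on 1 library. Hedgehog signalling, in which desert hedgehog from Sertoli cells acts on interstitial cells in mammals, had 10 of 19 tested members lower and 0 higher, with a median of -0.54. The signal transducer smo was at 5.67, 7.09 and 5.69 CPM in triploids and 18.7, 13.1, 16.9 and 14 CPM in diploids, with no overlap (log2 -1.35 ± 0.21 SE, adjusted p = 0.0013). The outlier, at 16.2 CPM, lay among the diploids. The co-receptor gene boc fell by 0.59 on the log2 scale (adjusted p = 0.0065). The calls of smo and boc held in all 7 omissions. The transcription factor gli1, a target of the pathway, changed by -0.77 (adjusted p = 0.013, lost without triploid replicates 1 or 3, up to 0.068). The count of lower members was 6, 3 and 4 without triploid replicates 1, 3 and 4, 6 and 5 without diploid replicates 1 and 3, and 1 with the outlier.

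Growth factors of the FGF, IGF and PDGF groups and their receptors had 10 of 54 members lower and 1 higher, with a median of -0.53. The phosphatase gene dusp6, a feedback inhibitor induced by FGF signalling, was at 6.29, 7.78 and 8.94 CPM in triploids, 12.4 CPM in the outlier and 26.8, 22.3, 22.7 and 22.6 CPM in diploids. This was a change of -1.62 ± 0.21 on the log2 scale (SE, adjusted p = 0.00032). The feedback inhibitor spry2 (log2 -1.04), the receptors fgfr2 (-1.11), pdgfra (-1.21) and pdgfrb (-1.26), the ligand igf2b (-1.78) and the binding protein igfbp5b (-1.39) were also lower in all 7 omissions (adjusted p from 0.00067 to 0.0043). The count of lower members was 7 to 11 over the omissions and 4 with the outlier. The ligand nrg1 was the member that was higher (log2 1.18, adjusted p = 0.031), a call lost in all omissions but that of diploid replicate 2 (up to 0.1).

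The TGF-beta, activin and BMP list had 10 of 57 members lower and 0 higher, with a median of -0.31. Besides amh and gsdf, fstl1b stayed called in all 7 omissions (log2 -1.22, adjusted p = 0.0027). The ligands tgfb1a, tgfb2 and tgfb3 changed by -0.83, -1.18 and -0.61, each call being lost in 3 to 5 of the 7 omissions. The count was 3 and 6 without triploid replicates 3 and 4, 6 without diploid replicate 3 and 6 with the outlier. Wnt signalling had 8 of 57 lower and 1 higher (median -0.49), led by nkd3l. The receptor fzd2 was lower in all 7 omissions (log2 -0.95, adjusted p = 0.0047). The Wnt count was 4, 3 and 5 without triploid replicates 1, 3 and 4, 3 without diploid replicate 3, and 2 with the outlier. Notch signalling had 3 of 21 lower (jag2a, jag2b and hey2), each lost in 4 to 6 omissions, and the count was 0 without any 1 triploid library or diploid replicate 3, and 1 without diploid replicate 1 or with the outlier. Retinoic acid genes had 1 of 28 lower, rdh10a (log2 -0.98, adjusted p = 0.045, lost without any 1 triploid library or diploid replicates 1 or 2, up to 0.14), and the synthesising enzyme aldh1a2 did not pass (log2 -0.21, adjusted p = 0.84).

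Some matrix, contractile and vessel genes were lower in triploids, and most members of these lists were not called. Of 63 tested extracellular matrix genes, 24 were lower and 0 higher, against 4.77% lower over all genes tested, with a median of -0.83. Their summed level was 3699, 3385 and 3026 CPM in triploid replicates 1, 3 and 4 and 6744, 5600, 7647 and 6479 CPM in diploid replicates 1 to 4. The outlier went the other way, at 8624 CPM, above every diploid library. The membrane protease gene mmp14a was at 19.7, 18.2 and 17.9 CPM in triploids and 43.4 to 59.5 CPM in diploids (log2 -1.49 ± 0.16 SE, adjusted p = 0.00012). Its paralogue mmp14b changed by -1.19 ± 0.13 (SE, adjusted p = 0.0001) and was at 127 CPM in the outlier, more than in any diploid library.

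Named after their values were seen, the laminins lama4, lama5, lamb2 and lamc1, the perlecan gene hspg2 and the collagens col4a1 and col4a2 changed by -0.73 to -1.32 (adjusted p from 0.00043 to 0.0066), and all stayed called in all 7 omissions. The proteoglycan dcn (log2 -1.29), the fibronectin fn1a (-1.25), the crosslinking enzyme loxl1 (-1.35) and the collagen col5a1 (-0.92) did so too. The count of lower members was 15 without triploid replicate 3 or 4, 19 without diploid replicate 3, and 4 with the outlier.

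Of 18 smooth muscle and peritubular genes, 8 were lower and 0 higher, against 4.77% and 1.05% of all genes tested, with a median of -1.0. The level of myh11a, the smooth muscle myosin heavy chain, was 324, 370 and 297 CPM in triploids, 451 CPM in the outlier and 805, 603, 844 and 681 CPM in diploids (log2 -1.15 ± 0.17 SE, adjusted p = 0.00086). The tropomyosins tpm1 (-0.95) and tpm2 (-1.0), the kinase mylka (-1.33) and the actin acta2 (-1.37) were also lower in all 7 omissions. The count was 5 without triploid replicate 4 and 7 with the outlier, which lay below all diploids on the summed level (1388 CPM against 2208 to 2927 CPM). Of 32 endothelial genes, 9 were lower and 0 higher (median -0.85), against 4.77% lower over all genes tested. Among the 9 were the receptors kdr (-0.82, adjusted p = 0.0095) and stab1 (-1.16, adjusted p = 0.0013), both called in all omissions. The endothelial count was 4, 2 and 5 without triploid replicates 1, 3 and 4 and 3 with the outlier.

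Few markers of blood cells were called, where 4.77% of all genes tested were lower and 1.05% higher. Of all 23007 genes tested, 11438 had a negative change. Of 30 macrophage and neutrophil genes, 1 was lower, the receptor csf1rb (log2 -1.88, adjusted p = 0.015, lost without triploid replicates 1 or 3, up to 0.077), 24 had a negative change, and the median was -0.57. The count was 0 without triploid replicates 1 or 3, and 4 and 3 without diploid replicates 2 and 4. The summed level was 633 to 736 CPM in triploids and 787 to 1193 CPM in diploids. Lymphocyte genes had 0 of 22 called and erythrocyte genes 0 of 13, all 13 with a negative change. The erythrocyte median was -1.61, and -0.40 without diploid replicate 1, while 3 members were lower without diploid replicate 2 or 4. Each of the 25 markers of exocrine pancreas and gut had reads in at least 1 EE2 library, 0 of 22 tested were called, and their median of -4.06 rested largely on diploid replicate 1, without which it was -2.06. Skeletal muscle, adipose tissue and zona pellucida genes had 0 called. The medians of the germ cell, meiosis and spermatid lists were 0.08 to 0.22 and those of the Sertoli, matrix, smooth muscle and endothelial lists -0.49 to -1.0, and the part of the mix of cells in either was not tested.

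**Figure D4:**
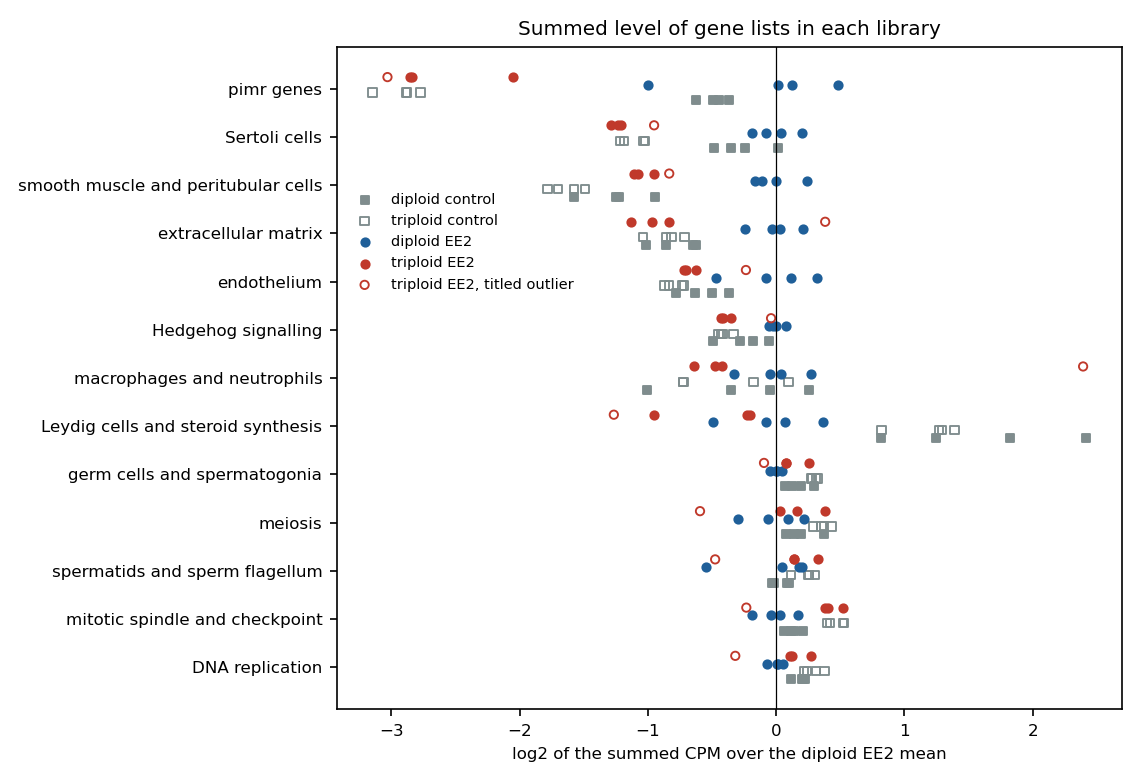
Summed CPM of 13 gene lists in each library, as log2 over the mean of the 4 diploid EE2 libraries. Triploid EE2 libraries (red) lie to the left of the diploid EE2 libraries (blue) for pimr, Sertoli, smooth muscle, matrix and Hedgehog genes and to the right for mitotic genes. The titled outlier (open red) lies with the other triploids for pimr and Sertoli genes, beyond the diploids for matrix and macrophage genes, and below the diploids for mitotic genes. The lists named are not the only ones that separate. Germ cell and DNA replication genes also summed higher in every triploid than in every diploid EE2 library, the outlier aside, which lay below the diploids.

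Circadian clock genes changed in both directions. Of 44 tested, 9 were lower and 1 higher, against 4.77% and 1.05% of all genes tested, with a median of -0.03. The nuclear receptor nr1d2a, a repressor within the clock, was at 17.8, 38.1 and 51.2 CPM in triploids, 28.9 CPM in the outlier and 99.6, 160, 124 and 128 CPM in diploids (log2 -1.85 ± 0.31 SE, adjusted p = 0.003). The repressor nfil3-6 fell too (log2 -1.38, adjusted p = 0.0081). The higher member was the cryptochrome cry1b, at 179, 156 and 174 CPM in triploids, 106 CPM in the outlier and 77.0 to 110.5 CPM in diploids (log2 0.87 ± 0.12 SE, adjusted p = 0.00068). These 3 calls held in all 7 omissions. The count of lower members was 3, 3 and 4 without triploid replicates 1, 3 and 4, 5 and 4 without diploid replicates 1 and 3, and 5 with the outlier. The paralogue nr1d1 did not pass (0.46, adjusted p = 0.44). The time of day at sampling was not given in the sources used here, and its part was not tested.

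Among genes of stress and growth arrest the shares called lower were near the 4.77% of all genes tested, or rested on few genes. Of 25 p53 targets and related genes, 3 were lower: foxo3b, a forkhead factor active when growth signals are low (log2 -1.43, adjusted p = 0.00081), sesn1 (-0.92, adjusted p = 0.00095) and plk3 (-0.67, adjusted p = 0.022, lost without any 1 triploid library, up to 0.099). The level of foxo3b was 21.4, 32.9 and 34.5 CPM in triploids and 68.0, 81.1, 90.6 and 77.5 CPM in diploids. Of 34 acute stress genes, 2 were lower, the cytokine feedback inhibitor socs3a (-1.58, adjusted p = 0.0069) and klf6a (-0.88, adjusted p = 0.0037). Of 32 interferon response genes, b2ml, for the light chain of class I histocompatibility molecules, was lower (-0.80, adjusted p = 0.008).

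Few genes of the housekeeping groups were called. Ribosomal protein genes had 1 of 44 lower for the large subunit and 2 of 33 for the small subunit, with medians of -0.28 and -0.31. The 3 triploid libraries lay below all diploid libraries for 36 and 24 of them, against 12.1% of all genes tested. The small subunit count was 0 or 1 in each of the 7 omissions. Without diploid control replicate 1, in which these genes stood apart, 13 and 15 were lower. Nuclear genes of oxidative phosphorylation had 1 of 65 higher, atp5mc3a (0.59, adjusted p = 0.025, lost in 4 omissions, up to 0.11), proteasome genes 0 of 37 and mitochondrially encoded genes 0 of 13. Cholesterol synthesis had 1 of 25 higher, sc5d (0.53, adjusted p = 0.046, lost in 6 omissions, up to 0.16). Transcription factors of testis fate had 3 of 14 lower, wt1a, nr0b1 and nr0b2a, and ovarian somatic genes 2 of 13 lower, pgr and nr0b1, and 1 higher, rspo2. Over all genes tested, 4.77% were lower and 1.05% higher. The calls of nr0b1 (log2 -1.10, adjusted p = 0.013) and nr0b2a (-1.93, adjusted p = 0.014) were lost without triploid replicates 1 or 3 (up to 0.069 and 0.073), and that of rspo2 (0.94, adjusted p = 0.027) without triploid replicates 3 or 4 or diploid replicates 1 or 3 (up to 0.13). The count of lower testis fate factors was 1 and 0 without triploid replicates 1 and 3.

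The same comparison can be made without EE2. The control contrast shares no library with the EE2 contrast. Both come from 1 fit with a shared filter, scaling and estimate of the spread, so their calls are not fully independent. In controls, 630 genes (2.74%) differed, 132 higher (0.574%) and 498 lower (2.16%). Of the genes lower under EE2, 365 were lower in controls too, 33.3% of the EE2 list and 73.3% of the control list. Of the higher genes, 46 were shared, 19.1% of the EE2 list and 34.8% of the control list. A pair of genes was called in opposite directions, pdlim5a (log2 -1.29 under EE2 and 1.65 in controls) and si:dkey-23a13.8 (1.24 and -1.54), both named after their values were seen.

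**Figure D5:**
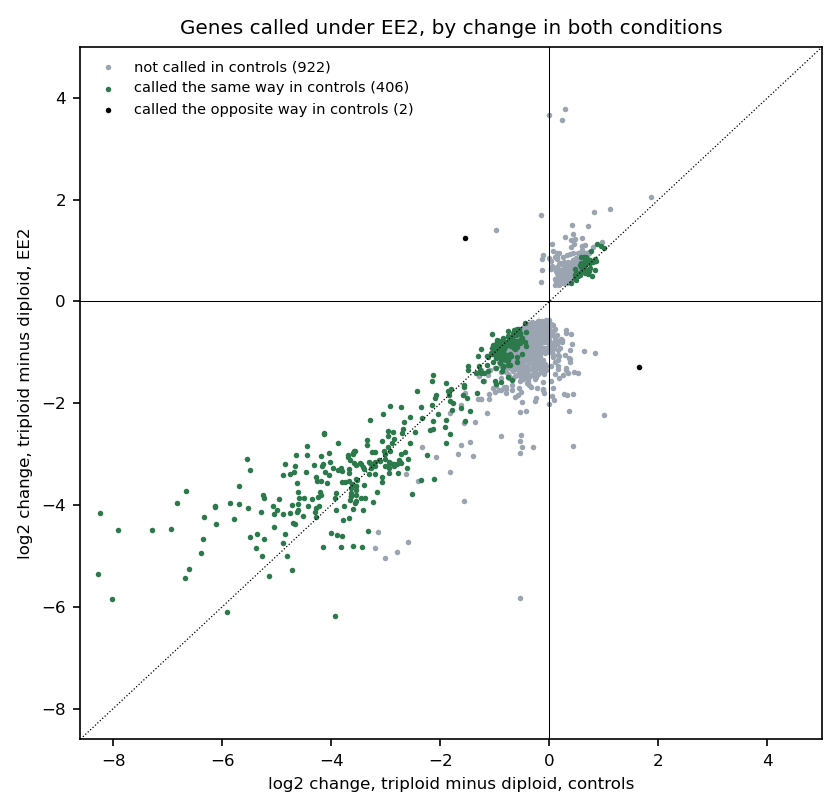
Log2 change, triploid minus diploid, in controls (horizontal) and under EE2 (vertical) for 1330 genes called under EE2. Another 8 with no read pair in a whole group are left out. Green points were called the same way in controls (406), grey points were not called there (922) and black points were called the opposite way (2). Some genes with large falls lie away from the dotted line of equal change, such as pimr82, at -5.26 under EE2 and -6.61 in controls. Most grey points of lower genes lie below the line, which their choice by the EE2 test favours.

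Most of the steepest falls were present in both conditions. Of the 192, 177 were called lower in controls, where their median was -3.83 with genes at 0 taken at the smallest fold their counts allow, against -3.79 under EE2. Taken the same way, atp1a1a.3 was an exception, at -5.83 under EE2 and -0.54 in controls. Its diploid EE2 levels ranged from 0.439 to 43.5 CPM, and it is named after its values were seen. Of the other 905 lower genes, 188 were called lower in controls, with a median of -0.46 against -0.95 under EE2. Both sets were chosen by their change under EE2, which favours larger changes there, so the medians of the 2 conditions are not alike. The change of amh was alike in size, -2.15 in controls and -2.04 under EE2, and so was that of the pimr list, at -3.09 and -3.01. The matrix list had 4 of 63 lower in controls with a median of -0.02, against 24 and -0.83 under EE2. For smooth muscle the control count was 1 of 18 (median -0.51), for endothelium 0 of 32 (-0.31), for Hedgehog signalling 2 of 19 (-0.21), and for mitotic genes 9 of 53 higher (0.28).

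A test of the difference between the ploidy effects called no gene. By edgeR's quasi-likelihood test 0 of 23007 genes passed (smallest adjusted p = 0.19), 1223 (5.32%) had an unadjusted p under 0.05, limma-voom called 0 and the DESeq2 Wald test called 43. A gene or list called under EE2 and not in controls is not shown to differ between them by this test. In the matrix list, 25 of 63 members had an unadjusted p under 0.05, with a median difference of -0.72. For foxo3b the difference was -1.53 (unadjusted p = 6.5e-05, adjusted p = 0.22), for nr1d2a -2.16 (unadjusted p = 0.00014, adjusted p = 0.25), and for tpm2 -0.73 (unadjusted p = 0.00081, adjusted p = 0.41). In these 3 genes the diploid EE2 libraries held the highest group mean: tpm2 averaged 272 CPM there, 136 CPM in triploid EE2, 100.2 CPM in diploid controls and 83.2 CPM in triploid controls.

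The titled outlier lay below all diploid libraries for 516 of the 1097 lower genes (47.0%), against 25.8% of all genes tested, and above all of them for 50 of the 241 higher genes (20.7%), against 26% of all genes tested. Its distance to the other triploids, as the root mean square difference of log2(CPM + 0.5), was 0.740 to 0.765, and its distance to the diploids 0.661 to 0.853. Between the other triploid and the diploid libraries it was 0.590 to 0.785. Distances within the groups were 0.490 to 0.514 for the 3 triploids and 0.485 to 0.686 for the 4 diploids. Of the 1097 lower and 241 higher genes, 445 and 25 were still called the same way with the outlier included, and of the 192 steepest falls 187. The diploid libraries were used in calling these genes, so the outlier's shares among them are not like those over all genes tested.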

How the data were processed

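Total RNA of male gonads was sequenced as strand-specific libraries after ribosomal RNA depletion, per the labels' protocols. The authors deposited raw counts of read pairs per gene, made with featureCounts 2.0.6 on STAR alignments with exons of Ensembl 113 (GRCz11), and exon lengths in bases, per the file headers. The sources used here give no STAR version. Multimapping reads and reads over several genes were left out, since the command sets no option to count them, so near-identical copies and overlapping genes are uncertain. The exon lengths were used only to describe genes.

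Counts were tested with the quasi-likelihood test of edgeR 4.0.16 (R 4.3.3) with TMM factors, filterByExpr and Benjamini-Hochberg adjustment over the 23007 genes tested, in 1 fit of 15 libraries of 4 groups, without the titled outlier. Fold changes are relative to library size. CPM values are counts scaled to the total of read pairs in genes times the TMM factor. The script was tested on simulated data. Some named genes were drawn from called genes with established names, groups that do not overlap and a mean log2 CPM of at least 1. Of these, the 12 largest rises and 12 largest falls were taken (at most 3 pimr genes). Added were 22 fixed names and, from each list with at least 1 called member, the 2 members with the smallest p, called or not. Other members are named as parts of their lists, chosen after their values were seen. Members and lists were chosen with earlier results of these data known.

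Alternatives were RLE and upper-quartile factors, no filter and a stricter filter of 1 CPM in 3 libraries, DESeq2 1.42.0, limma-voom (limma 3.58.1), the EE2 libraries alone, inclusion of the outlier, omission of each of the 7 EE2 libraries, the replicate block, and, added later, omission of diploid control replicate 1. The smallest p of an exact permutation test of 3 against 4 libraries is 0.029.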

Additional observations from a re-analysis of the deposited data

Results flagged for a closer look

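Of 131 values examined within the 4 diploid EE2 libraries, 14 had 1 library far from the others by Dixon's criterion, which chance meets in about 1 group in 20. Diploid replicate 1 was the far library for tie1 (23.3 CPM) and dusp6 (26.8 CPM) and for the summed erythrocyte (1459 CPM) and exocrine pancreas and gut lists (8746 CPM). Replicate 3 was far for lhcgr (18.9 CPM), mylka (110 CPM), F13A1 ENSDARG00000045453 (187 CPM) and vtg1 (1222 CPM) and for the summed estrogen-responsive list (2858 CPM). Replicate 4 was far for stab1 (108.4 CPM) and for the summed Notch (1485 CPM) and zona pellucida lists (127.2 CPM). Replicate 2 was far for tmprss4a (11.8 CPM) and for the summed acute stress list (1304 CPM). Causes were not tested.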

How the results depend on the processing

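None of the 65 named genes that were called changed sign under an alternative, 37 stayed called in all 7 omissions of an EE2 library, and 46 in the fit of the EE2 libraries alone. Of the 22 named genes not called, 5 changed sign between omissions (vtg1, from -3.27 to 0.16, dmrt1, sox9a, cyp17a1 and aldh1a2). Over these omissions the number of called genes was 592 to 1559, with 78 to 277 higher and 514 to 1282 lower. With the titled outlier included it was 484 (28 higher and 456 lower). The DESeq2 Wald test called 2095 (540 higher), and the fit of the EE2 libraries alone 132 higher. Without diploid control replicate 1, 2135 were called (630 higher and 1505 lower). In controls, DESeq2 called 1227 genes and inclusion of the outlier left 377, and DESeq2 called 43 genes for the difference between the ploidy effects. Of 1496 counts of called list members under these settings, 252 moved by over 1.5 times. Same-numbered libraries did not deviate together (correlations 0.00959, -0.00765 and -0.0337), so the numbers were not taken to pair them; a fit with the replicate block called 1104 genes (182 higher and 922 lower). The causes of these shifts were not tested. With 3 libraries against 4 and a median biological coefficient of variation of 20.4%, small changes and genes with few read pairs are the least certain.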

Other observations

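Without a family name, the largest falls under EE2 were those of si:dkey-85n7.11 (log2 -6.10, chromosome 20, 27416520 to 27417816), ENSDARG00000116503 (-5.84) and si:dkey-249p7.4 (-5.43), chosen after their values were seen. Expression of ENSDARG00000113284 and si:dkey-73n10.8 was at 0 in the 3 triploid libraries and averaged 3.17 and 1.33 CPM in diploids, at least 36.4-fold and 15.3-fold lower against a floor of 3 read pairs over the triploid group.

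Beside the chromosome 1 span of higher genes lies si:ch211-160d14.11 (8575307 to 8577274). In controls it was at 0.333 CPM in diploid replicate 1 and 25.9 to 112.4 CPM in the other 7 libraries. Under EE2 it was at 27.4, 69.9 and 58.6 CPM in triploid replicates 1, 3 and 4. In diploid EE2 replicates 1 to 4 it was at 0.406, 0.251, 21.1 and 25.1 CPM. The groups did not overlap, but it was not called (log2 2.14, adjusted p = 0.35).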
